A study of Caenorhabditis elegans with 9 samples.

Results

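The 10 genes described here encode the contractile filaments of Caenorhabditis elegans muscle. They are the myosin heavy chain genes unc-54, myo-3, myo-1 and myo-2, the paramyosin gene unc-15, the tropomyosin gene lev-11, the troponin C gene pat-10, the troponin T genes tnt-2 and tnt-3 and the troponin I gene tni-1. They were taken by name from a deposited count table of 46748 genes, and all 10 passed the filter on low counts that left 14622 genes for testing. The study fed RNA interference (RNAi) constructs to worms and sequenced RNA from whole animals. All 9 libraries came from wild-type N2 hermaphrodites at an age of 5 days. The L4440 group (3 libraries) received the empty vector and served as control, the B0395.3 group (3 libraries) received a construct against B0395.3, a carnitine acyltransferase relative, and the H28O16.1 group (3 libraries) received a construct against the gene atp-1 (sequence name H28O16.1), whose product is a subunit of the mitochondrial ATP synthase. No allele or transgene is named for any group. Nothing in the labels states that libraries within a group are separate cultures. The p-values thus cover library-to-library spread only, and that spread may be technical.

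Muscle contracts when thick filaments of myosin pull on thin filaments of actin. Each myosin molecule holds a pair of heavy chains whose heads split ATP, and in nematodes the rod-like protein paramyosin forms the core of the thick filament. On the thin filament, tropomyosin lies along actin and the troponin complex moves it when calcium binds troponin C, while troponin I holds the inhibited state and troponin T ties the complex to tropomyosin. The worm uses different genes in different muscles: UNC-54 (myosin heavy chain B) and MYO-3 (myosin heavy chain A) build the thick filaments of the body wall muscle that drives locomotion, and MYO-1 and MYO-2 (myosin heavy chains D and C) those of the pharynx, the feeding pump. In the body wall, troponin C comes from pat-10 and troponin I from tni-1, unc-27 and tni-3. Paramyosin and tropomyosin serve body wall and pharynx. Accordingly 4 members were placed on the body wall side (unc-54, myo-3, pat-10, tni-1), 2 on the pharyngeal side (myo-1, myo-2) and 2 on both (unc-15, lev-11), while tnt-2 and tnt-3 were placed on neither.

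The members lie on 3 chromosomes of the WBcel235 build. On chromosome I, all on the minus strand, are unc-54 (14855901 to 14863482), myo-1 (7258946 to 7267057), unc-15 (7376604 to 7383197), lev-11 (14621169 to 14631094) and pat-10 (5018783 to 5020358). The gene myo-3 lies on chromosome V (12226817 to 12234343, minus strand). On chromosome X are myo-2 (12468061 to 12475348, plus strand) and, on the minus strand, tnt-2 (8721546 to 8723550), tnt-3 (7937633 to 7945099) and tni-1 (11375887 to 11377470). The annotation gives 1 transcript each to the 4 myosin genes, tnt-2 and tni-1, and 3 to unc-15, 6 to pat-10, 11 to tnt-3 and 20 to lev-11. Counts were made per gene, so a change in the choice among the transcripts of those 4 genes was not measured. No other annotated gene shared exon bases with a member.

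The libraries held 31236614 to 40990685 counts, and the share of them that fell on the members was 0.0811% to 0.0973% in the control group, 0.0566% to 0.0619% under B0395.3 RNAi and 0.0916% to 0.132% under H28O16.1 RNAi. Each targeted mRNA was lower where its construct was fed: atp-1 stood at 70.6 ± 4.35 CPM (read counts scaled to a common library total; SD, n = 3) in H28O16.1 against 1944 ± 72 CPM in L4440, and B0395.3 at 13.9 ± 2.23 CPM in its own group against 33.6 ± 1.76 CPM. Under the other construct each was also called lower, by less. There B0395.3 stood at 25.6 ± 2.51 CPM (edgeR adjusted p = 0.00297) and atp-1 at 1761 ± 50.2 CPM (edgeR adjusted p = 0.0245). H28O16.1 replicate 3 stood apart from its group, with a chi-square per degree of freedom of 16.3 and 11.8 to replicates 1 and 2, against 2.54 to 5.36 for all other pairs within a group. All 10 members were highest in replicate 3 among the H28O16.1 libraries, from 1.06 times the mean of replicates 1 and 2 for pat-10 to 1.72 times for unc-54, while 40.2% of all tested genes were highest there. In that library genes over 6 kb stood at a median log2 ratio of 0.20 to the other H28O16.1 libraries and genes under 1 kb at -0.07, and the part of this in the members' values was not tested. Member results and list counts of the H28O16.1 group are therefore given with all libraries and without replicate 3.

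Per length, the members covered a wide range of levels in the control worms. The scale is RPKM, the CPM divided by the gene's length in kilobases, given as mean ± SD over 3 libraries. The most abundant mRNA was pat-10, at 268 ± 24.3 RPKM, and the tropomyosin gene lev-11 followed at 74.2 ± 6.27 RPKM. Next came unc-15 (42.3 ± 4.57 RPKM), unc-54 (40.2 ± 4.68 RPKM) and tnt-2 (33.5 ± 4.73 RPKM), where each overlapped its neighbour in the range of its libraries. The minor body wall myosin gene myo-3 (5.21 ± 0.369 RPKM), tni-1 (4.93 ± 0.755 RPKM) and tnt-3 (4.48 ± 0.494 RPKM) formed a lower set that also overlapped. The pharyngeal myosin genes were lowest, with myo-2 at 2.16 ± 0.172 RPKM and myo-1 at 1.89 ± 0.0966 RPKM, and their libraries overlapped. In B0395.3 worms the gap between body wall and pharyngeal myosin was narrower, with myo-3 at 3.95 ± 0.388 RPKM beside myo-2 at 3.10 ± 0.250 and myo-1 at 3.09 ± 0.266 RPKM. There pat-10 (173 ± 2.23 RPKM) and lev-11 (53.7 ± 2.86 RPKM) were again highest, unc-15 and unc-54 stood at 23.1 ± 2.01 and 20.6 ± 1.93 RPKM and tnt-2 at 14.0 ± 0.345 RPKM, while tni-1 (4.23 ± 0.245 RPKM) was above tnt-3 (2.71 ± 0.159 RPKM). In H28O16.1 worms pat-10 reached 394 ± 17.2 and lev-11 83.4 ± 7.31 RPKM, followed by unc-15 (49.7 ± 14.2 RPKM), unc-54 (41.4 ± 14.0 RPKM) and tnt-2 (34.8 ± 8.19 RPKM), whose libraries overlapped. The lower members there were myo-3 (4.52 ± 1.26 RPKM), tni-1 (4.15 ± 0.820 RPKM), tnt-3 (3.56 ± 0.581 RPKM), myo-2 (2.18 ± 0.539 RPKM) and myo-1 (1.81 ± 0.523 RPKM).

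Worms fed the B0395.3 construct held less mRNA for most filament genes and more mRNA for the pharyngeal myosins than worms fed the empty vector. Of the 10 members, 6 were lower (unc-54, unc-15, lev-11, pat-10, tnt-2 and tnt-3), 2 were higher (myo-1 and myo-2) and 2 did not pass the test (myo-3 and tni-1), with a median log2 fold change of -0.55 against 0.01 over all genes. Across all 14622 genes, 27.2% were called in this comparison, 12.6% higher and 14.6% lower. The libraries of the 2 groups did not overlap for 9 of the 10 members, 2 of them higher and 7 lower, against 47.1% of all genes, 23.8% higher and 23.3% lower. In RNA from whole worms, a changed share of a cell type in the total RNA and a changed mRNA level within its cells cannot be told apart.

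**Figure D1:**
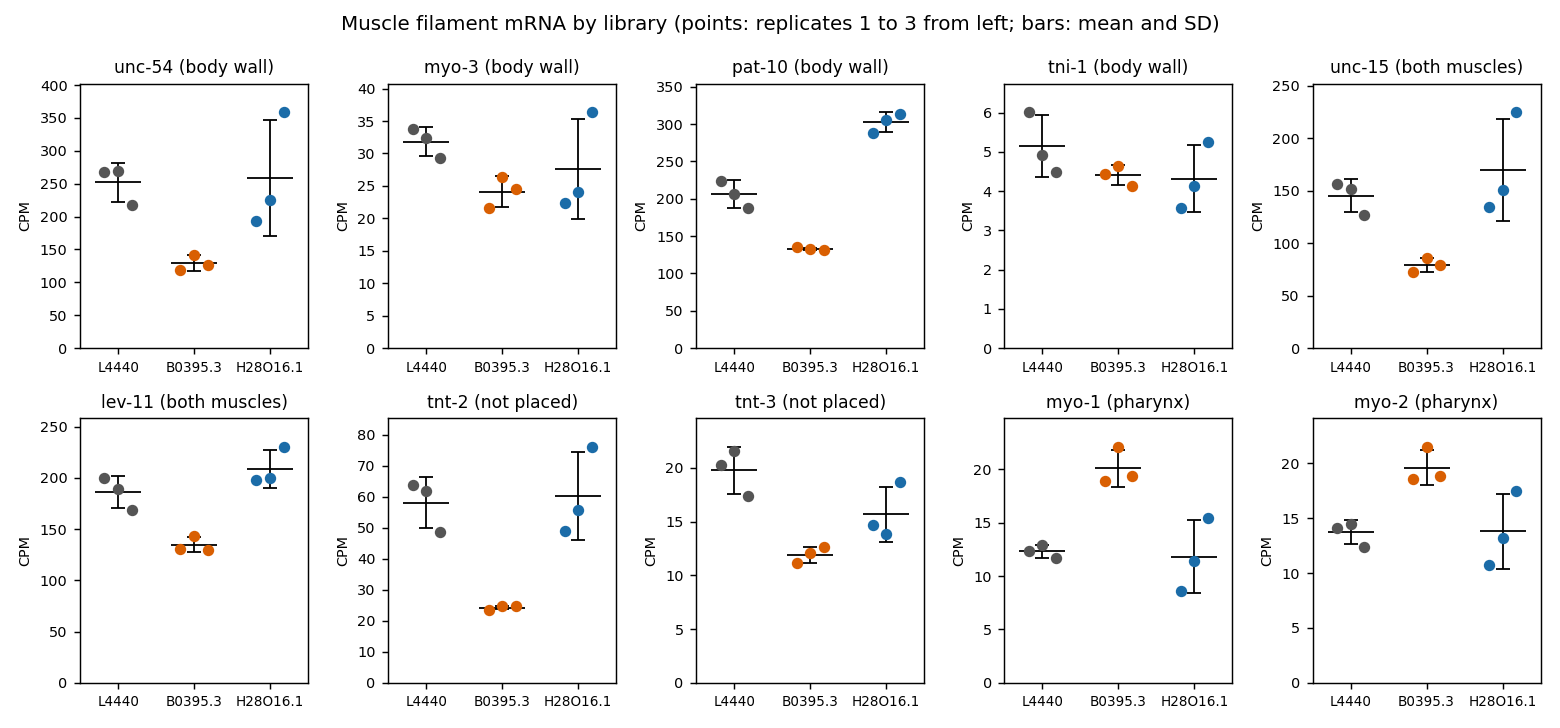
CPM of each of the 10 genes in each of the 9 libraries, with a panel per gene and a linear axis that starts at 0. Points are replicates 1 to 3 from left to right and bars are the group mean and SD (n = 3). The B0395.3 libraries (orange) lie below L4440 (grey) for all genes but tni-1, where they overlap, and myo-1 and myo-2, where they lie above; in H28O16.1 (blue) replicate 3 is the highest of the 3 points in every panel.

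Among the thick filament genes of the body wall, the major heavy chain gene unc-54 fell and the minor one, myo-3, did not pass the test. The unc-54 mRNA stood at 268, 269 and 218 CPM in the L4440 libraries and at 118, 142 and 127 CPM in the B0395.3 libraries. The groups lay far apart, and the mean fell from 252 ± 29.3 to 129 ± 12.1 CPM. Its log2 fold change was -0.97 (SE 0.17, edgeR adjusted p = 0.00108). The myo-3 mRNA stood at 33.7, 32.4 and 29.3 CPM in L4440 and at 21.6, 26.3 and 24.5 CPM in B0395.3. These groups did not overlap either, but the difference missed the threshold (log2 fold change -0.40, SE 0.14, adjusted p = 0.0564). It passed when only the 6 libraries of the pair were fitted (adjusted p = 0.000366). It also passed with no filter on low counts (adjusted p = 9.26e-09). That setting gave unc-54 an edgeR adjusted p of 2.05e-155 with 3 libraries per group, so its p-values carry little weight. The myo-3 difference did not pass with DESeq2 (adjusted p = 0.168), a robust edgeR fit (adjusted p = 0.154) or limma on log2(RPKM + 1) (adjusted p = 0.151). Leaving out single L4440 or B0395.3 libraries gave an edgeR adjusted p of 0.0702 to 0.189. Those fits, like the main one, also took the spread from the H28O16.1 libraries, where myo-3 stood at 22.3, 24 and 36.4 CPM. The part of that group's spread in the missed threshold was not tested. The ratio of unc-54 to myo-3 CPM was 7.42 to 8.32 in L4440 and 5.19 to 5.46 in B0395.3. Paramyosin mRNA also fell: unc-15 stood at 156, 152 and 127 CPM in L4440 and at 72.5, 86.3 and 79.0 CPM in B0395.3 (log2 fold change -0.87, SE 0.15, adjusted p = 0.000843). The unc-54 to unc-15 ratio ranged from 1.72 to 1.78 in L4440 and from 1.61 to 1.64 in B0395.3.

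The pharyngeal myosin genes went the other way. The myo-1 mRNA stood at 12.3, 12.9 and 11.7 CPM in L4440 and at 18.9, 22.1 and 19.4 CPM in B0395.3. Every B0395.3 library lay above every control, and the rise was 1.63-fold (log2 fold change 0.71, SE 0.15, adjusted p = 0.0031). The myo-2 mRNA stood at 14.1, 14.5 and 12.4 CPM in L4440 and at 18.6, 21.5 and 18.8 CPM in B0395.3, a rise of 1.43-fold (log2 fold change 0.52, SE 0.13, adjusted p = 0.0116). The myo-2 call was lost without L4440 replicate 3 (adjusted p = 0.0518) or without B0395.3 replicate 2 (adjusted p = 0.0539), with no change of direction. Both of these fits kept the H28O16.1 libraries. The call held with only the 6 libraries of the pair (edgeR adjusted p = 5.7e-05), DESeq2 (adjusted p = 0.000607) and a robust edgeR fit (adjusted p = 0.0273). The pair stayed close to each other, with a myo-1 to myo-2 ratio of 0.872 to 0.937 in L4440 and 1.01 to 1.03 in B0395.3. The 4 heavy chain genes encode related proteins. No source used here states how reads that match several genes were counted, so their split is uncertain to that extent.

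The thin filament regulators fell in B0395.3 worms, apart from tni-1. The tropomyosin gene lev-11 stood at 200, 189.6 and 169 CPM in L4440 and at 131, 143 and 130.1 CPM in B0395.3 (log2 fold change -0.47, SE 0.07, adjusted p = 0.00017). The troponin C gene pat-10 stood at 224, 207 and 187 CPM in L4440 and at 135, 133 and 132 CPM in B0395.3 (log2 fold change -0.63, SE 0.05, adjusted p = 1.79e-06). Its B0395.3 libraries lay within a few CPM of each other. The largest change of any member was in the troponin T gene tnt-2, at 63.7, 62.0 and 48.7 CPM in L4440 and 23.6, 24.7 and 24.7 CPM in B0395.3. Its level in B0395.3 worms was 41.9% of that in controls, a log2 fold change of -1.26 (SE 0.14, adjusted p = 2.12e-05), and 1.68% of all tested genes had a lower fold change. The other troponin T gene, tnt-3, stood at 20.3, 21.6 and 17.4 CPM in L4440 and at 11.2, 12.1 and 12.6 CPM in B0395.3 (log2 fold change -0.73, SE 0.11, adjusted p = 0.000278). The troponin I gene tni-1, with the fewest counts of the members, stood at 6.02, 4.92 and 4.50 CPM in L4440 and at 4.45, 4.65 and 4.14 CPM in B0395.3. These groups overlapped (log2 fold change -0.22, SE 0.14, adjusted p = 0.29), so a difference of tni-1 was not detectable with these libraries.

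**Figure D2:**
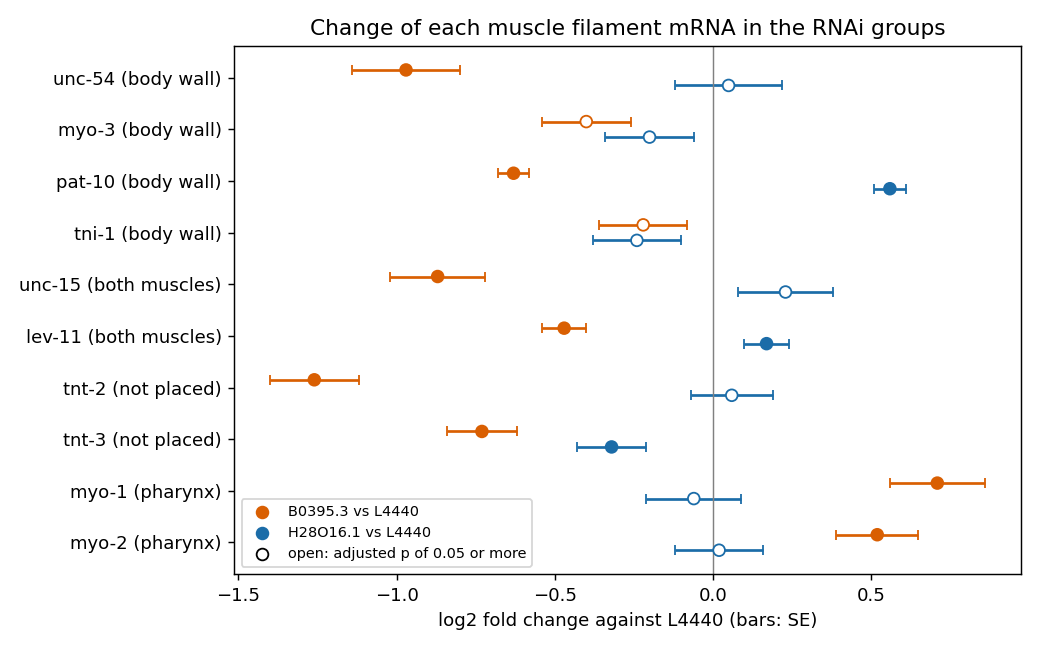
Log2 fold change of each gene against L4440 in the B0395.3 group (orange) and the H28O16.1 group (blue), with bars for the standard error; filled points had an adjusted p under 0.05 and open points did not. In B0395.3 the changes run from -1.26 for tnt-2 to 0.71 for myo-1, with the pharyngeal genes alone to the right of 0, while in H28O16.1 they run from -0.32 for tnt-3 to 0.56 for pat-10.

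Body wall and pharyngeal members were then set against each other within each library, as a description with no test because the genes were chosen with results of these data known. The summed CPM of unc-54, myo-3, pat-10 and tni-1 was 531, 514 and 438 in the L4440 libraries, 279, 306 and 287 in the B0395.3 libraries and 508, 559 and 715 in the H28O16.1 libraries. The sum of myo-1 and myo-2 was 26.5, 27.4 and 24.1 CPM in L4440, 37.5, 43.6 and 38.2 CPM in B0395.3 and 19.3, 24.6 and 32.8 CPM in H28O16.1. The ratio of these sums ran from 18.2 to 20.1 in control libraries, from 7.02 to 7.52 in B0395.3 libraries and from 21.8 to 26.3 in H28O16.1 libraries, so no group overlapped another in this ratio. With each gene weighted equally, as mean log2 CPM of the 4 minus that of the 2, L4440 (2.00 to 2.16) and H28O16.1 (2.06 to 2.26) overlapped. B0395.3 stayed apart on that scale, at 0.84 to 0.92. Both sums were highest in replicate 3 among the H28O16.1 libraries, yet its ratio, 21.8, was the lowest of that group. In the B0395.3 comparison with L4440 the mean log2 fold change was -0.55 over the 4 body wall members and 0.61 over the 2 pharyngeal members, a difference of -1.17. For scale, mean log2 CPM of the 4 minus that of the 2 had an SD among libraries, pooled over the groups, of 0.09. In the H28O16.1 comparison the means were 0.04 and -0.02, a difference of 0.06, and the difference was 0.10 without replicate 3. Myosin heavy chains alone gave a ratio of body wall to pharyngeal CPM of 3.72 to 3.97 in B0395.3, where L4440 ranged from 10.3 to 11.4 and H28O16.1 from 10.1 to 12.1.

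**Figure D3:**
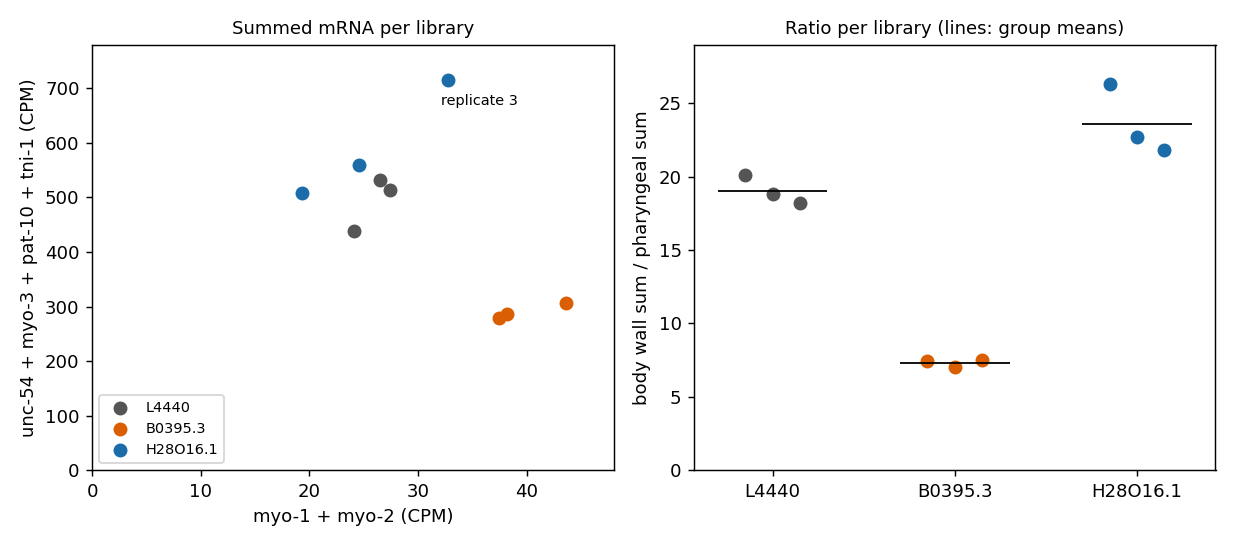
Left, summed CPM of the 4 body wall genes against summed CPM of the 2 pharyngeal myosin genes, with a point per library; right, the ratio of these sums, with lines at the group means. The B0395.3 libraries (orange) lie at the lower right with ratios of 7.02 to 7.52, L4440 (grey) at 18.2 to 20.1 and H28O16.1 (blue) at 21.8 to 26.3.

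In worms fed the H28O16.1 construct, the members called depended on replicate 3. Of 10 genes, 2 were higher than in L4440 (pat-10 and lev-11), 1 was lower (tnt-3) and 7 did not pass, with a median log2 fold change of 0.03 against 0.00 over all genes. That is 3 of 10 in a comparison in which 57.6% of all genes were called, 26.3% higher and 31.2% lower. The groups did not overlap for 1 of the 10 members (pat-10, higher), against 61.4% of all genes, 28.6% higher and 32.8% lower. Without H28O16.1 replicate 3, the count was 1 higher (pat-10) and 5 lower (unc-54, myo-3, myo-1, tnt-3 and tni-1), where 58.1% of all genes were called, 26.4% higher and 31.8% lower. In that fit the log2 fold changes of the members other than pat-10 and lev-11 were below 0.

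The clearest change in H28O16.1 was in troponin C. The pat-10 mRNA stood at 288, 305 and 314 CPM in H28O16.1 against 224, 207 and 187 CPM in L4440. The groups were well apart, and the level rose 1.47-fold (log2 fold change 0.56, SE 0.05, adjusted p = 1.02e-06). Without replicate 3 it was 0.53 (adjusted p = 2.39e-07). Tropomyosin rose less: lev-11 stood at 198, 199.5 and 230.5 CPM against 200, 189.6 and 169 CPM (log2 fold change 0.17, SE 0.07, adjusted p = 0.0408). These groups overlapped, and the call was lost without L4440 replicate 2 (adjusted p = 0.0621), L4440 replicate 3 (adjusted p = 0.152) or H28O16.1 replicate 3 (adjusted p = 0.136). The troponin T gene tnt-3 stood at 14.7, 13.9 and 18.7 CPM against 20.3, 21.6 and 17.4 CPM in L4440 (log2 fold change -0.32, SE 0.11, adjusted p = 0.0204). That call was lost without any of L4440 replicates 1 and 2 (adjusted p = 0.0603 and 0.0967) and H28O16.1 replicates 1 and 2 (adjusted p = 0.0681 and 0.0916). Without H28O16.1 replicate 3 the fall was larger, at -0.47 (adjusted p = 0.00023).

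The myosin and paramyosin genes spread widely within H28O16.1. The unc-54 mRNA stood at 194, 225 and 359 CPM, with replicates 1 and 3 on opposite sides of the L4440 range of 218 to 269 CPM. Its log2 fold change was 0.05 (SE 0.17, adjusted p = 0.838) with all libraries and -0.27 (adjusted p = 0.0133) without replicate 3. The myo-3 mRNA stood at 22.3, 24 and 36.4 CPM (log2 fold change -0.20, adjusted p = 0.254), and at -0.46 (adjusted p = 9.77e-05) without replicate 3. Replicates 1 and 2 lay below every control library for myo-3, and replicate 3 lay above them all. For unc-15 the H28O16.1 libraries held 134, 151 and 225 CPM (log2 fold change 0.23, adjusted p = 0.193), with values of -0.02 (adjusted p = 0.815) without replicate 3 and 0.38 (adjusted p = 0.0238) without replicate 1. For tnt-2 they held 48.9, 55.8 and 76.2 CPM (log2 fold change 0.06, adjusted p = 0.739), and the value was -0.15 (adjusted p = 0.149) without replicate 3. The unc-54 to unc-15 ratio was steadier, at 1.44 to 1.59 in H28O16.1, below its L4440 range of 1.72 to 1.78. The unc-54 to myo-3 ratio was 8.67 to 9.86 in H28O16.1, above its L4440 range of 7.42 to 8.32.

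Neither pharyngeal myosin passed the test in H28O16.1. The myo-1 mRNA stood at 8.59, 11.4 and 15.4 CPM (log2 fold change -0.06, SE 0.15, adjusted p = 0.77), with myo-2 at 10.7, 13.2 and 17.5 CPM (log2 fold change 0.02, SE 0.14, adjusted p = 0.923). Without replicate 3 the values were -0.31 (adjusted p = 0.0198) for myo-1 and -0.20 (adjusted p = 0.098) for myo-2. The myo-1 to myo-2 ratio was 0.802 to 0.88 in H28O16.1 and overlapped its L4440 range of 0.872 to 0.937. The troponin I gene tni-1 stood at 3.58, 4.14 and 5.26 CPM (log2 fold change -0.24, adjusted p = 0.171), and at -0.42 (adjusted p = 0.0138) without replicate 3.

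The RNAi groups were also compared directly, since the comparisons with L4440 share the same controls. Relative to B0395.3, 6 members were higher in H28O16.1 (unc-54, unc-15, lev-11, pat-10, tnt-2 and tnt-3), 2 were lower (myo-1 and myo-2) and 2 did not pass (myo-3 and tni-1). In this comparison 62.6% of all genes were called, 30.5% higher and 32.1% lower. The groups did not overlap for these 8 members, 6 higher and 2 lower, against 66.8% of all genes, 32.7% higher and 34.2% lower. The median log2 fold change was 0.52 over the members and 0.00 over all genes. The counts of 6 and 2 were the same without H28O16.1 replicate 3. The largest difference was in tnt-2, at 2.48-fold (log2 fold change 1.31, SE 0.14, adjusted p = 2.84e-06), then pat-10 at 2.27-fold (1.18, SE 0.05, adjusted p = 8.04e-10), unc-15 at 2.15-fold (1.11, SE 0.15, adjusted p = 2.95e-05) and unc-54 at 2.02-fold (1.01, SE 0.17, adjusted p = 0.000216). Without replicate 3 the unc-54 difference was 0.70 and the unc-15 difference 0.85 on the log2 scale, with 1.11 for tnt-2 and 1.16 for pat-10. The pharyngeal genes differed by -0.77 (myo-1, adjusted p = 0.000567) and -0.50 (myo-2, adjusted p = 0.0055), and by -1.02 and -0.72 without replicate 3. For myo-3 the difference was 0.20 (adjusted p = 0.249), which turned to -0.06 (adjusted p = 0.561) without replicate 3 and reached 0.34 (adjusted p = 0.0462) without replicate 1.

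Other troponin, actin and myosin light chain genes were read from lists drawn up by gene class. Counts on these and the later lists stand beside the shares of all genes called. Those shares were 27.2% in B0395.3 (12.6% higher, 14.6% lower) and 57.6% in H28O16.1 (26.3% higher, 31.2% lower). The remaining body wall troponin genes all fell in B0395.3: the troponin I genes unc-27 (-0.92, from 110.1 ± 10 to 58.1 ± 2.87 CPM, adjusted p = 1.53e-05) and tni-3 (-0.41) and the troponin T gene mup-2 (-0.47). All 3 rose in H28O16.1, mup-2 by 0.47, tni-3 by 0.46 and unc-27 by 0.26 log2 units, of which 2 passed without replicate 3. Of 7 actin and light chain genes, 6 fell and 0 rose in B0395.3, with a median of -0.40. The light chain genes mlc-1, mlc-2 and mlc-3 stood at -0.65, -0.55 and -0.53 and the actin genes act-4, act-2 and act-1 at -0.40, -0.16 and -0.15. In H28O16.1, act-2 (-0.52), act-1 (-0.40) and act-3 (-0.21) fell and mlc-3 (0.33) rose, and the counts of 3 and 1 were the same without replicate 3. The actin genes are close copies of each other, as are mlc-1 and mlc-2, so the split of reads within these sets is uncertain. In L4440, act-2 stood at 1046 CPM and act-1 at 54.6 CPM. How much of each actin mRNA came from muscle was not measured in these whole worms.

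Of 8 tested genes on the list of other pharyngeal muscle genes, 3 rose and 0 fell in B0395.3, with a median of 0.25. They were the pharyngeal troponin C gene tnc-2 (0.58, from 5.03 ± 0.201 to 7.5 ± 0.449 CPM, adjusted p = 0.000189), the pharyngeal troponin T gene tnt-4 (0.70, from 2.36 ± 0.211 to 3.85 ± 0.0266 CPM, adjusted p = 0.00508) and eat-2, an acetylcholine receptor subunit gene of the pharynx (1.65, from 0.194 ± 0.00767 to 0.617 ± 0.078 CPM). The pharyngeal troponin I gene tni-4 stood at 0.07 (adjusted p = 0.342) and the myosin heavy chain gene myo-5 at 0.20 (adjusted p = 0.338). In H28O16.1, 2 of these 8 rose, the innexin gene eat-5 (1.79) and eat-2 (1.68), and 3 fell, tni-4 (-0.26), the homeobox gene ceh-22 (-1.46) and tnt-4 (-0.47), with the same counts without replicate 3. Low levels limit some of these values: ceh-22 stood at 0.122 CPM against 0.352 CPM in L4440, and eat-2 at 0.624 against 0.194 CPM. The tnt-4 groups overlapped. The ninth gene on that list, eat-18, had too few counts to be tested.

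Genes that hold and control the filaments were read in the same way. In B0395.3, 0 of 7 genes of the thick filament and M line passed by edgeR or by DESeq2, and 2 had an unadjusted p under 0.05, both lower: the twitchin gene unc-22 (-0.43, adjusted p = 0.0672) and the obscurin-like gene unc-89 (-0.36, adjusted p = 0.103). Of 6 thin filament turnover genes, 1 fell, the calponin-related unc-87 (-0.71), and 1 rose, the capping protein gene cap-2 (0.12). Of 20 genes that attach sarcomeres to the cell membrane, 6 fell and 0 rose: the alpha integrin gene pat-2 (-0.86), unc-95 (-0.65), the perlecan gene unc-52 (-0.57), dim-1 (-0.54), the vinculin gene deb-1 (-0.46) and zyx-1 (-0.29). Of 21 genes of excitation and calcium handling, 3 fell, the potassium channel gene twk-18 (-1.06), the calsequestrin gene csq-1 (-0.79), which encodes a calcium store protein, and the acetylcholine receptor gene unc-63 (-0.34), and 1 rose, the potassium channel gene shk-1 (0.39). DESeq2 called 2 lower and 0 higher on that list. Of 4 muscle transcription factor genes 0 passed by edgeR, at an unadjusted p under 0.05 or by DESeq2, with hlh-1, the worm MyoD gene, at -0.53 (adjusted p = 0.152) and unc-120 at -0.25 (adjusted p = 0.328). Over the 8 lists of muscle genes other than the members, 19 of 76 tested genes fell and 5 rose, with a median of -0.09 against 0.01 over all genes. Of the 5 rises, 3 were on the list of other pharyngeal muscle genes. Across all genes, 27.2% were called in this comparison, 14.6% lower and 12.6% higher.

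In H28O16.1 the same 76 genes held 24 rises and 13 falls, with a median of 0.15 against 0.00 over all genes, and 19 rises and 18 falls without replicate 3. Across all genes, 57.6% were called in this comparison, 26.3% higher and 31.2% lower. Without replicate 3 the shares were 58.1%, 26.4% and 31.8%. Of the 7 thick filament and M line genes, 3 rose (unc-98 at 0.38, unc-96 at 0.39 and unc-89 at 0.38) and the myosin chaperone gene unc-45 fell (-0.23), with 1 rise and 1 fall without replicate 3. Of the 6 thin filament turnover genes, 4 rose, with cap-2 at 0.20 and cap-1 at 0.12, and 2 fell, the cofilin gene unc-60 (-0.34) and unc-78 (-0.33), with the same counts without replicate 3. Of the 20 attachment genes, 6 rose, led by cpna-1 (1.00, from 15.2 ± 1.35 to 30.4 ± 6.09 CPM) and lim-8 (0.40), and 2 fell, uig-1 (-0.96) and the beta integrin gene pat-3 (-0.35), with 6 rises and 4 falls without replicate 3. Of the 21 genes of excitation and calcium handling, 5 rose, among them the junctophilin gene jph-1 (0.73), the calcium channel beta subunit gene ccb-1 (0.73) and the GABA receptor gene unc-49 (0.69), and the calcium pump gene sca-1 fell (-0.15), with 3 rises and 3 falls without replicate 3. Among the 4 transcription factors hnd-1 fell (-0.81), with 2 falls without replicate 3, and hlh-1 (-0.58, adjusted p = 0.0778), hlh-8 (-0.27) and unc-120 (-0.04) did not pass.

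**Figure D4:**
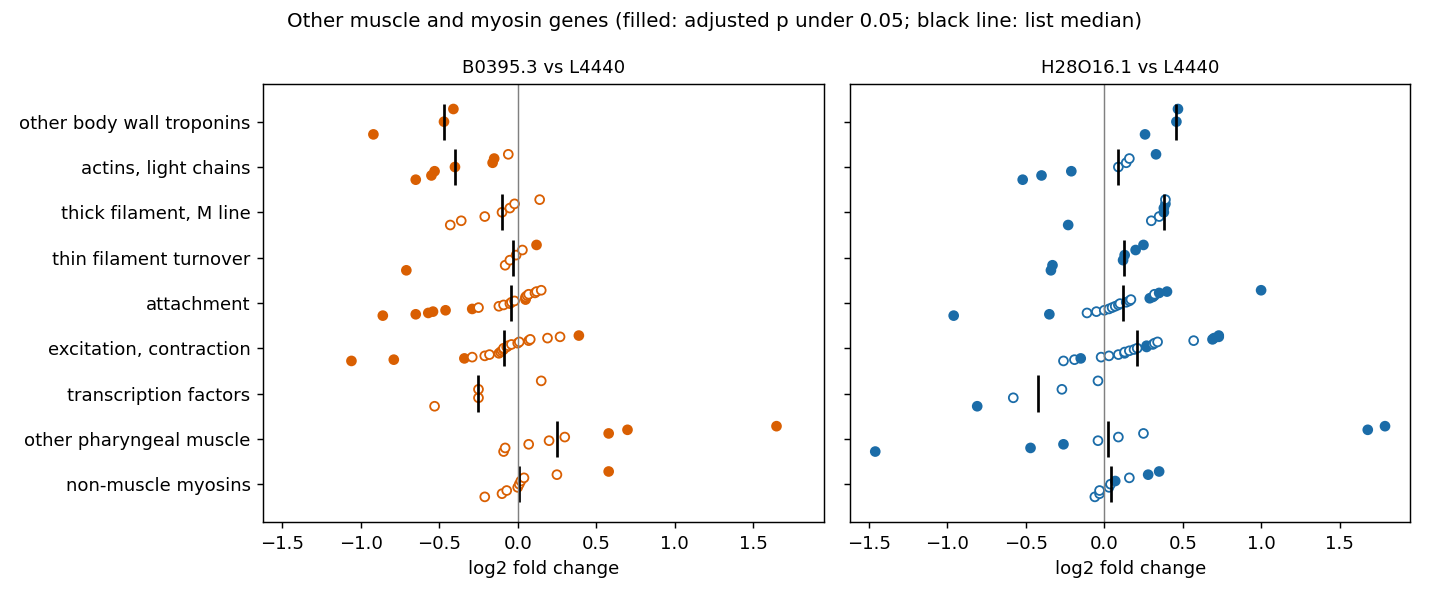
Log2 fold changes against L4440 of the tested genes on 8 lists of muscle genes other than the 10 members, and of non-muscle myosin genes, in B0395.3 (left, orange) and H28O16.1 (right, blue). Filled points had an adjusted p under 0.05 and black lines are list medians; for the other body wall troponins the median is -0.47 on the left and 0.46 on the right.

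Myosins outside muscle gave a further point of reference. Of 9 non-muscle myosin genes, 1 rose and 0 fell in B0395.3, with a median of 0.01; it was hum-6 (0.58), and hum-5 stood at -0.10 (adjusted p = 0.072). In H28O16.1, 3 rose (hum-5 at 0.35, hum-6 at 0.28 and hum-1 at 0.07) and 0 fell, with a median of 0.04, while mlc-4 stood at 0.04 (adjusted p = 0.155). Without replicate 3 the counts were 2 and 2. Whether the members differ from these genes was not tested.

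Marker genes of other cell types were read beside these results. Of all genes tested, 27.2% were called in B0395.3, 12.6% higher and 14.6% lower. In B0395.3, 1 of 6 hypodermis markers fell, the collagen gene col-19 (-1.30), while bli-1 stood at -1.78 (adjusted p = 0.0805) and the list median was 0.20. Their summed level was 31.4 to 40.0 CPM against 54.7 to 82.1 CPM in L4440, and col-19 alone made up a mean of 24.5 CPM in B0395.3 and 60.6 CPM in L4440. Of 7 intestine markers 2 rose and 3 fell, with a list median of 0.03, and the falls included vha-6 (-0.66) and ges-1 (-0.59). The sums were 292 to 308 CPM against 358 to 403 CPM, of which vha-6 alone held a mean of 71.6 CPM against 113 CPM. Of 13 neuron markers 3 rose, among them unc-64 (0.24), and 1 fell, unc-18 (-0.21), with sums of 387 to 413 CPM against 384 to 392 CPM. Of 8 early embryo markers 7 were tested and 4 rose, among them sdz-28 (0.71) and sdz-31 (0.64), with sums of 106 to 111 CPM against 82.2 to 88.6 CPM. Of 10 oocyte and germ line markers 5 fell and 0 rose, among them oma-2 (-0.17) and oma-1 (-0.13), with sums of 10951 to 11431 CPM against 11939 to 12395 CPM. Of 6 tested sperm markers 1 fell, gsp-3 (-1.16, 0.326 CPM against 0.742 CPM), while gsp-4 stood at -0.56 (adjusted p = 0.354), with sums of 6.01 to 6.19 CPM against 6.34 to 6.95 CPM. Of 4 tested pharyngeal gland markers 0 were called by edgeR, at an unadjusted p under 0.05 or by DESeq2. On that list phat-4 stood at -0.61 (adjusted p = 0.222) and phat-5 at 0.56 (adjusted p = 0.481), with sums of 3.80 to 4.68 CPM against 3.45 to 4.32 CPM.

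In H28O16.1, 57.6% of all genes tested were called, 26.3% higher and 31.2% lower. Early embryo markers summed to 5.12 to 6.23 CPM in that group. Of them, 6 were lower both with all libraries and without replicate 3, among them vet-6 (-4.43), sdz-28 (-4.44), tbx-38 (-6.37) and tbx-37 (-4.92). Of 6 hypodermis markers 5 fell, and 6 without replicate 3, with sums of 44.5 to 47.7 CPM. They included col-19 (-0.58), dpy-10 (-0.54), wrt-2 (-1.80, 0.11 CPM against 0.414 CPM in L4440) and rol-6, which stood at 0.025 CPM against 0.293 CPM in L4440. Of 13 neuron markers 3 rose and 4 fell, and 2 and 3 without replicate 3, with sums of 366 to 413 CPM, unc-64 at 0.29, unc-13 at 0.55, unc-18 at -0.17 and unc-119 at -0.76. Of 7 intestine markers 4 rose and 2 fell, and 5 and 2 without replicate 3, with sums of 385 to 429 CPM, ifb-2 at 0.66, mtl-2 at 0.48, ges-1 at -0.33 and pept-1 at -0.92. Of 10 oocyte and germ line markers 8 fell and 1 rose, with the same counts without replicate 3 and sums of 9868 to 10280.5 CPM, and oma-2 stood at -0.77, cyb-1 at -0.69, cpg-2 at -0.46 and oma-1 at -0.26. Of 6 tested sperm markers 1 rose, spe-41 (1.96), and 3 fell, fer-1 (-1.22), gsp-3 (-1.95) and gsp-4 (-1.41), with 1 and 2 without replicate 3 and sums of 9.75 to 10.7 CPM. Levels of gsp-3 and gsp-4 were low, at 0.194 and 0.145 CPM against 0.742 and 0.388 CPM in L4440. Of 4 tested pharyngeal gland markers 1 rose, hlh-6 (1.70), and 2 fell, phat-4 (-3.07, 0.0564 CPM against 0.481 CPM in L4440) and phat-3 (-0.38), with the same counts without replicate 3. There phat-5 stood at 0.65 (adjusted p = 0.319), and the sums were 3.84 to 4.38 CPM. No marker of these lists was at 0 in all libraries of a group, and the part of these cell types in the members' values was not tested.

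The genes whose level followed the members most closely were sought among 8512 other genes whose mean reached 5 CPM, by Pearson's r of log2 CPM over the 9 libraries, as a description with no test, since the libraries share 3 groups. For unc-54 they were dim-1 (r = 0.989), an immunoglobulin-domain gene of muscle attachment, T23E7.2 (0.988), pat-2 (0.985), C18D11.1 (0.985) and the cytochrome P450 gene cyp-32A1 (0.985). These genes stood at -0.54, -0.85, -0.86, -0.53 and -0.67 log2 units in B0395.3 and at 0.05, 0.03, 0.14, 0.03 and -0.08 in H28O16.1. For myo-2 the closest was myo-1 (r = 0.987), followed by bicd-1 (0.980), lin-15B (0.973), the spectrin gene spc-1 (0.968) and zoo-1 (0.964). Apart from myo-1, their log2 fold changes in B0395.3 were 0.12, 0.17, 0.23 and 0.34.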

How the data were processed

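The authors deposited whole-number counts per gene for 9 libraries, not normalized, and an RPKM table. Per the submitters' processing notes, featureCounts 1.4.6-p4, STAR 2.4.1d and bcl2fastq 1.8.4 were used with the WBcel235 build, and no source used here gives their parameters. Per the labels' protocols, libraries were made with a TruSeq RNA kit that does not mark strand. In the deposited RPKM table the library totals cycle down the genes, so 11.1% of values were divided by their own total; the table served only to recover gene lengths, and RPKM were recomputed from counts. Names and coordinates came from Ensembl release 115, which held 46449 of 46748 identifiers.

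Counts were tested with edgeR 4.0.16 (R 4.3.3): filterByExpr with a minimum count of 10, TMM scaling, one quasi-likelihood model of the 9 libraries and Benjamini-Hochberg adjustment over 14622 genes, with a two-sided threshold of 0.05. All adjusted p-values come from that fit unless another is named. Alternatives used DESeq2 1.42.0 and limma 3.58.1, and the edgeR step was tested on simulated data. Fold changes are log2, and CPM are TMM-scaled. Total counts set the counting precision, and the spread between libraries the rest. Replicates were numbered in record order, and no pairing by that number was used because the labels state none. The members, the lists and the tests were chosen with earlier results of these data known. The genes named are all members, both RNAi targets, from each list the up to 4 genes with the smallest p in H28O16.1 and 2 in B0395.3, and the 5 most alike to unc-54 and to myo-2; further list genes (mlc-2, act-4, tnt-4, myo-5, eat-18, unc-52, deb-1, zyx-1, unc-63 and shk-1) were named after their values were seen.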

Additional observations from a re-analysis of the deposited data

How the results depend on the processing

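In B0395.3 against L4440, the count of members called lower was 6 under each alternative run, except 7 with no filter on low counts and 7 with the 6 libraries of the pair. The higher count was 2, and 1 to 2 when single libraries were left out. With no filter on low counts the edgeR adjusted p of unc-54 was 2.05e-155, against 0.00108 in the main fit. Calls added by that setting, here and below, therefore carry little weight. In H28O16.1 against L4440 the higher count was 1 with the 6 libraries of the pair or with a robust edgeR fit, and 3 with no filter on low counts, and the lower count was 2 with no such filter and 0 with limma on log2(RPKM + 1) or log2(RPKM + 0.1); leaving out single libraries gave 1 to 3 higher and 0 to 5 lower. The body wall minus pharyngeal difference with log2(RPKM + 1) was -0.94 for B0395.3 against L4440 and 1.02 for H28O16.1 against B0395.3, and -1.31 for the former with tnt-2 and tnt-3 counted with the body wall. Over the muscle lists, the 5 rises in B0395.3 became 8 with library totals only, 2 at a mean of at least 5 CPM and 9 with limma at either pseudocount, and the rises in H28O16.1 ranged from 19 to 37 when single libraries were left out. With the exon lengths of the annotation, pat-10 stood at 210.3 and tnt-2 at 38.4 RPKM in L4440. Directions turned only where a single library was left out, for members not called with all libraries: against L4440 in H28O16.1 the ranges were -0.27 to 0.22 for unc-54, -0.20 to 0.18 for myo-2, -0.31 to 0.13 for myo-1, -0.02 to 0.38 for unc-15 and -0.15 to 0.19 for tnt-2, and against B0395.3 they were -0.06 to 0.34 for myo-3 and -0.20 to 0.10 for tni-1. The cause of these shifts was not tested. With library totals only, 67.0% of the genes called in B0395.3 were higher, against 46.2% with TMM. The added alternatives (robust fit, placement of troponin T, muscle lists, exon lengths) were chosen after seeing the data. At a mean of at least 5 CPM tni-1 was filtered out, so that setting gave no body wall minus pharyngeal value. No paired analysis was possible because the labels give no replicate numbers that the groups share.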
